A study of Mus musculus with 8 samples.

Results

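Jakmip2, Ecscr, Mctp1, Lrrc75b, Pcolce2 and Cd55 are 6 mouse genes that stood far higher in sh8 cells than in WT cells on Agilent arrays. Both are lines of 3T3-L1, a mouse preadipocyte line that turns into fat cells in culture. The 6 were chosen on measured values: their level in sh8 relative to WT was among the highest over the whole time course or on days -2 and 0. They are 6 of 17548 named genes that passed the filter on dim probes, and 8 probes measure them. Since this contrast chose them, every value of sh8 against WT below is a description of these genes, and no test is given for it. The choice had no numeric threshold, and many genes with a difference of similar size were not included.

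The sh8 line is 3T3-L1 stably transfected with slincRAD-shRNA-8, a short hairpin RNA aimed at the long noncoding RNA slincRAD, and the WT line is unmodified 3T3-L1. Each line was measured once on each of 4 days, numbered -2, 0, +2 and +4, so there were 8 arrays and no replicate of either line on any day. Day 0 is confluence, when cells of both lines were given MDI, the hormone mixture that starts fat cell formation (0.5 mM isobutylmethylxanthine, 1 µM dexamethasone and 167 nM insulin). No line with a control hairpin and no second hairpin were analysed here, so what is particular to the sh8 line and what follows from the hairpin cannot be told apart. The labels do not say whether sh8 is 1 clone, and the level of slincRAD itself was not analysed here.

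The genes have different known roles. Jakmip2 encodes a coiled-coil protein of a family named for binding Janus kinases and microtubules, best known from neurons. Ecscr encodes a single-pass membrane protein of endothelial cells, the lining of blood vessels, with roles in their migration and survival. Mctp1 encodes a protein held in membranes by its transmembrane segments, with C2 domains that bind calcium. Lrrc75b encodes a leucine-rich repeat protein described in a mouse muscle cell line as a brake on myogenic differentiation. Pcolce2 encodes a secreted glycoprotein that speeds the removal of the C-terminal propeptide of procollagen by BMP1-type proteinases, a step in making collagen fibrils. Cd55, or decay-accelerating factor, is a lipid-anchored surface protein that breaks up the complement convertases and so protects cells from complement.

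Promoter sequences were read for 3 of the genes from RefSeq on the build GRCm38.p6, each running from 250 bases before the gene's start to 50 bases after it. They are shown because genes that stand together in a comparison invite a look at shared promoter letters. Capitals mark the motif matches found: GGGCGG, read here on its other strand as CCGCCC, and TGANTCA. The Cd55 window is chr1:130462695-130462994 on the minus strand, the Pcolce2 window is chr9:95637378-95637677 on the plus strand and the Mctp1 window is chr13:76579347-76579646 on the plus strand.
Cd55: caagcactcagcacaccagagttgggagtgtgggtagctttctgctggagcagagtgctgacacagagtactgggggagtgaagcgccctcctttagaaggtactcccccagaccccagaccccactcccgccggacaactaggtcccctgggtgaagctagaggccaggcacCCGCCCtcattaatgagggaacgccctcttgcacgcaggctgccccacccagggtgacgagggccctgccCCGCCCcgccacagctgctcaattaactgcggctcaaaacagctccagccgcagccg
Pcolce2: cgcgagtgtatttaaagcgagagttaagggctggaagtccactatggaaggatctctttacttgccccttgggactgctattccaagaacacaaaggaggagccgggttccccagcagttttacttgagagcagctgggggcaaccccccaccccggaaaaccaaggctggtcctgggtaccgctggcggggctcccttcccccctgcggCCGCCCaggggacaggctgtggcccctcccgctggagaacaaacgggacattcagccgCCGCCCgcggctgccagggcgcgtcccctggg
Mctp1: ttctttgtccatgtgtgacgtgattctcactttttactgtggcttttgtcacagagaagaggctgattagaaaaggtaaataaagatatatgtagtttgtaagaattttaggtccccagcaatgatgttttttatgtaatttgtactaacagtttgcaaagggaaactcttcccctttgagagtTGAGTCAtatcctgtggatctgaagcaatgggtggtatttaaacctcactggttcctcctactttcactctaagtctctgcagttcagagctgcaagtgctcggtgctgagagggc

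GGGCGG, the core letters of a GC box, was found at positions -77 and -7 relative to the gene start in Cd55 and at -40 and 19 in Pcolce2. It was not found in the Mctp1 window. TGANTCA, the letters of an AP-1 element, was found only in the Mctp1 window among the 3, at position -66, as TGAGTCA. On both strands, no match was found in these windows for the TATA box letters TATAAA, for CCAAT, for the cyclic AMP element TGACGTCA or for the E-box letters CACGTG. Of 32851 mouse promoters of the same length, 35.7% held GGGCGG, 7.81% TGANTCA, 13.6% TATAAA, 37.4% CCAAT, 1.79% TGACGTCA and 7.15% CACGTG. Base composition also differed: G and C made up 63.3% of the Cd55 window, 63.7% of the Pcolce2 window and 40.7% of the Mctp1 window. No motif searched was shared by the 3 windows, and a match is a description of letters, not of binding. Jakmip2, Ecscr and Lrrc75b had no entry.

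Levels below are on a log2 scale, set against the 75th percentile of the processed intensities of the same array. A level of 0 is thus that percentile, and a difference of 1 is a 2-fold difference. A probe is called well above background where the scanner software marked it so. Between 64.9% and 81.7% of probes were well above background per array, the 75th percentile intensity ran from 759.87 to 1239.46, and no spot was saturated. Repeat spots of a probe had a median SD of 0.050 to 0.069 log2 within an array. Of the preadipocyte and fibroblast markers, 9 of 9 were well above background on every array. So were some markers of other cell types, such as Ptprc of leukocytes and Pecam1 of endothelial cells. The flag therefore does not check the labelled cell type. Each level below comes from bulk RNA, where fewer cells of a type and less RNA per cell cannot be told apart.

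Jakmip2 had a clear signal in sh8 cells on every day and none marked well above background in WT cells. Its brighter probe (A_52_P304056) read -1.31, -1.94, -2.03 and -2.48 on days -2, 0, +2 and +4 in sh8 cells, against -8.38, -7.98, -8.41 and -8.85 in WT cells. It was well above background on all 4 sh8 arrays and on none of the 4 WT arrays, so the WT level has only a bound and its values have no order. The scanner's own error estimate was 10.0% to 10.2% of the signal on the sh8 arrays and 99.6% to 100.03% on the WT arrays. Against the lowest signal counted as well above background, Jakmip2 was at least 27.9-fold higher in sh8 on day -2, at least 13.8-fold on day 0, at least 18.3-fold on day +2 and at least 19.5-fold on day +4. Over the 4 days the bound was at least 19.2-fold. The difference of the values as measured was 6.47 ± 0.43 log2 (SD over 4 days), which includes the unordered WT values.

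The dimmer Jakmip2 probe (A_55_P2151096) showed the same separation. It read -4.22, -4.48, -4.36 and -4.76 in sh8 cells, against -7.69, -7.30, -7.64 and -6.56 in WT cells. Again all 4 sh8 arrays and no WT array were well above background, and the bound was at least 3.24-fold higher in sh8. Both probes thus put sh8 above WT on every day. The 4 days came in a different order in sh8 with each probe.

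Mctp1 was higher in sh8 on every day with its brighter probe. The brighter probe (A_55_P2016376) read -1.71, -0.69, -0.37 and -0.02 in sh8 cells, against -5.16, -4.19, -4.58 and -4.21 in WT cells. All 8 arrays were well above background, and the lowest sh8 array stood 2.49 log2 above the highest WT array. The difference was 3.84 ± 0.41 log2 (SD over 4 days), or 14.3-fold, with 10.96-fold, 11.4-fold, 18.5-fold and 18.2-fold on the 4 days in turn. The sh8 level was highest on day +4 with this probe.

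The dimmer Mctp1 probe (A_55_P2182134) separated the lines less clearly. It read -6.24, -5.48, -4.86 and -5.05 in sh8 cells, against -8.41, -8.00, -6.06 and -7.18 in WT cells. Only the sh8 arrays of days +2 and +4 and the WT array of day +2 were well above background. The 4 sh8 values overlapped the 4 WT values, with the lowest sh8 minus the highest WT at -0.18. On days -2 and 0 neither line was well above background, so this probe gives no direction there. On day +2, the only day with both arrays well above background, sh8 was 1.20 log2 higher, and on day +4 at least 3.28-fold. Its sh8 level was highest on day +2, so the 2 probes differ in the order of days. Each of the other 4 genes had 1 probe, so no second probe could be set beside it.

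Cd55 differed between the lines most on day 0. It read -1.31, 0.26, -0.27 and -0.77 in sh8 cells, against -4.47, -4.39, -4.47 and -4.32 in WT cells. The WT values were nearly flat, with an SD of 0.074 over the 4 days, and the sh8 values varied with an SD of 0.67. The difference was 3.89 ± 0.67 log2 (SD over 4 days), or 14.8-fold, and was 8.94-fold, 25.2-fold, 18.4-fold and 11.7-fold on the 4 days in turn. The lowest sh8 array stood 3.01 log2 above the highest WT array.

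Pcolce2 had its lowest level on day 0 in both lines and was higher in sh8 on every day. It read 2.95, 1.19, 1.87 and 1.66 in sh8 cells, against -0.49, -2.89, -0.35 and -0.42 in WT cells. The difference was 2.96 ± 0.97 log2 (SD over 4 days), or 7.76-fold. By day it was 10.8-fold, 17.0-fold, 4.65-fold and 4.24-fold, so the days before induction held the larger values. The lines did not overlap, with 1.54 log2 between the lowest sh8 and the highest WT array.

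Lrrc75b had its largest difference on day -2 and a smaller one on each later day. It read 0.28, 0.12, -1.06 and -1.18 in sh8 cells, against -3.17, -1.96, -2.58 and -2.16 in WT cells. The difference was 10.9-fold, 4.25-fold, 2.87-fold and 1.97-fold on the 4 days in turn, with a mean of 2.01 ± 1.06 log2 (SD over 4 days), or 4.02-fold. On days +2 and +4 the sh8 level was lower than on days -2 and 0, and the WT level was lowest on day -2. The lowest sh8 array stood 0.78 log2 above the highest WT array.

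Ecscr had nearly the same level on every sh8 array and a varying level on the WT arrays. It read -0.96, -1.02, -1.14 and -0.91 in sh8 cells, against -4.43, -5.32, -2.36 and -1.74 in WT cells. The SD over the 4 days was 0.10 in sh8 and 1.69 in WT. The difference was 11.1-fold on day -2, 19.7-fold on day 0, 2.33-fold on day +2 and 1.78-fold on day +4. Its mean was 3.89 log2 on days -2 and 0 and 1.02 log2 on days +2 and +4. The lowest sh8 array stood 0.59 log2 above the highest WT array, the narrowest gap of the 6 main probes.

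**Figure D1:**
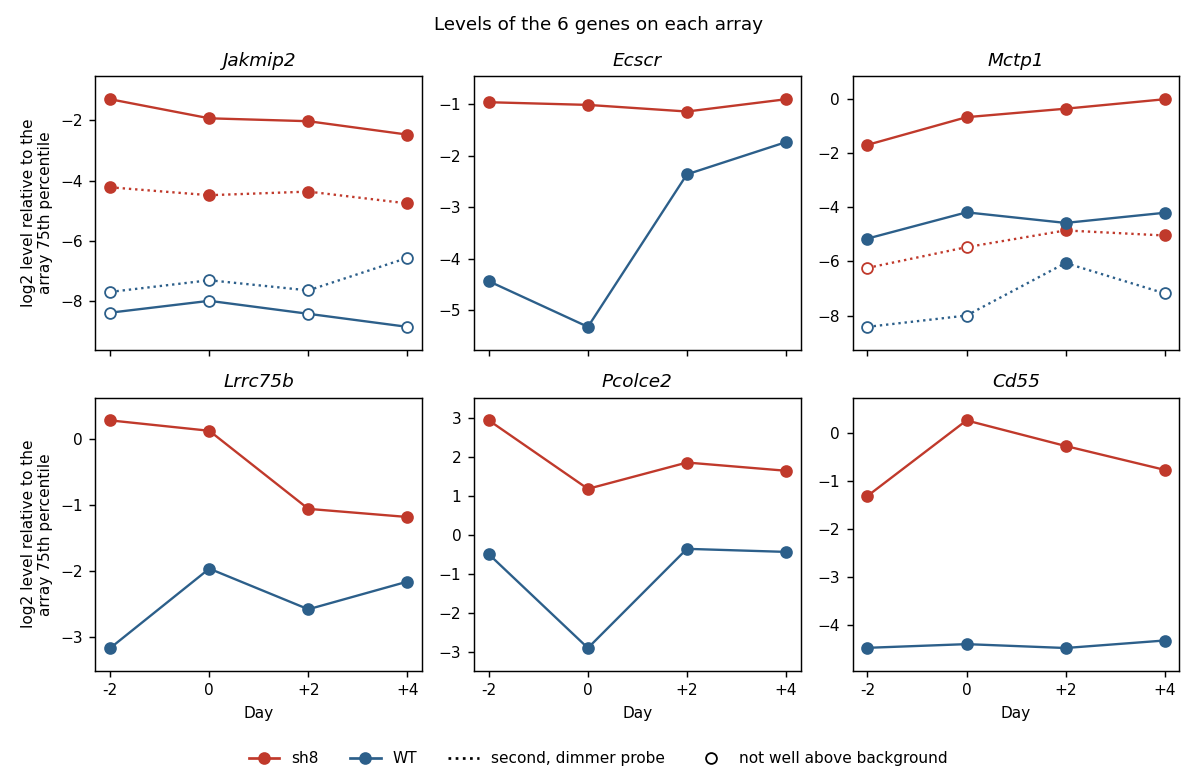
Level of each gene (log2, relative to the array's 75th percentile) against day, with sh8 in red and WT in blue, 1 point per array; dotted lines are the second, dimmer probe and open points are not well above background. The red solid line lies above the blue one on all 4 days in every panel, and the WT points of Jakmip2 are all open.

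As a group, 6 of 6 genes were at least 1 log2 higher in sh8 on day -2, 6 of 6 on day 0, 6 of 6 on day +2 and 4 of 6 on day +4. The 2 that fell short on day +4 were Ecscr and Lrrc75b. Among all genes and unnamed transcripts, 4.74%, 5.79%, 13.9% and 9.42% were that much higher on the 4 days in turn. All 6 genes had their 4 sh8 arrays above their 4 WT arrays, as did 10.2% of all features. These shares give the scale only, because the genes were picked on this contrast.

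For the 5 genes measured in both lines, the difference followed 2 kinds of course. It was about as large after induction as before it for Cd55 (3.91 log2 on days -2 and 0, 3.88 log2 on days +2 and +4) and larger for the brighter probe of Mctp1 (3.48 and 4.20 log2). The dimmer Mctp1 probe read 2.35 and 1.67 log2, the first from arrays not well above background. The second includes the WT array of day +4, which was not well above background either. The difference was smaller after induction for Ecscr (3.89 and 1.02 log2), Pcolce2 (3.76 and 2.15 log2) and Lrrc75b (2.77 and 1.25 log2). Jakmip2 has only its bounds and is placed in neither. The differences on days -2 and 0 were among the values used for the choice, which favours genes with a large difference on those days. A smaller difference on days +2 and +4 is therefore only a description, and those days are also the second scan. By the mean over all 4 days, Cd55 ranked 23, Mctp1 25, Pcolce2 65, Ecscr 116 and Lrrc75b 195 of 17548. By days -2 and 0 alone, Cd55 ranked 22, Ecscr 23, Pcolce2 26, Mctp1 37 and Lrrc75b 83. The 99th percentile of the difference over all genes was 2.21, 2.70, 2.83 and 2.52 log2 on the 4 days in turn. Ecscr stood above that level on days -2 and 0 and below it on days +2 and +4, as did Pcolce2.

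**Figure D2:**
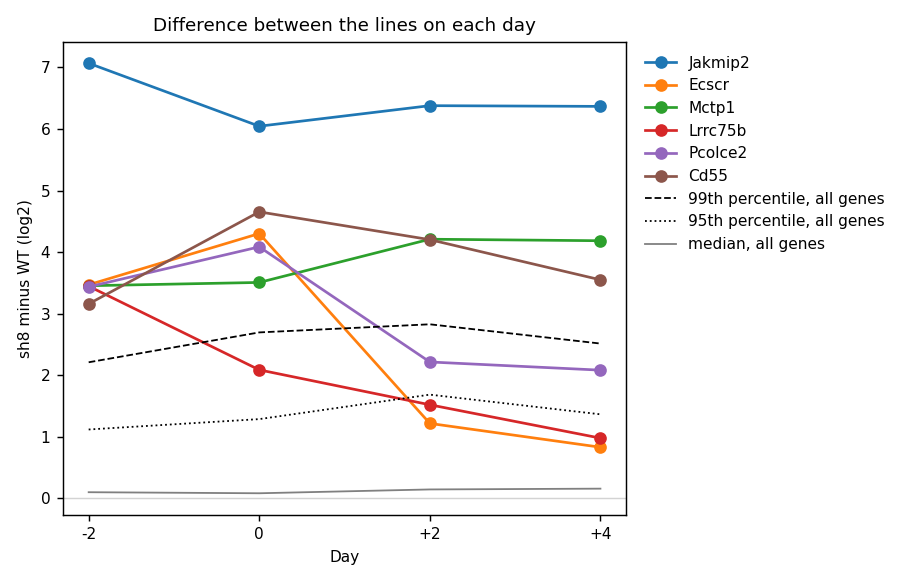
Difference of sh8 minus WT (log2) on each day for the 6 genes, 1 array per line and day, beside the median, 95th and 99th percentile of all genes. Jakmip2 (whose WT values are not well above background), Cd55 and Mctp1 stay above the 99th percentile on all 4 days, and Ecscr, Pcolce2 and Lrrc75b lie below it on days +2 and +4.

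Changes between days, averaged over both lines, were not used to choose the genes. They were tested with limma on all 8 arrays, with Benjamini-Hochberg adjustment over all features. None of the 6 passed an adjusted p of 0.05 in any of the 3 steps, while 2, 1 and 0 of them had an unadjusted p under 0.05. Against day -2, day 0 had no call at all (0% higher and 0% lower, with 6715 features at an unadjusted p under 0.05). Against day 0, day +2 had 9.00% of features higher and 2.89% lower. Against day +2, day +4 had 0% higher and 0% lower, with 1439 features at an unadjusted p under 0.05.

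On day 0 against day -2, Mctp1 and Pcolce2 had the lowest adjusted p of the 6. Mctp1 was higher on day 0 by 1.02 log2 in sh8 and 0.97 log2 in WT, a fitted 0.99 ± 0.26 (SE) with a limma adjusted p of 0.110. Pcolce2 was 3.38-fold lower on day 0 in sh8 and 5.30-fold lower in WT, a fitted -2.08 ± 0.55 (SE) with a limma adjusted p of 0.112. For both genes the difference had the same sign in the 2 lines. Cd55 was 2.97-fold higher on day 0 in sh8 and differed by 0.077 log2 in WT, a fitted 0.82 ± 0.39 (SE) with a limma adjusted p of 0.258. Lrrc75b differed by -0.16 log2 in sh8 and 1.20 log2 in WT, with a limma adjusted p of 0.622.

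On day +2 against day 0, Pcolce2 was higher by 0.68 log2 in sh8 and by 2.55 log2 in WT, a fitted 1.61 ± 0.55 (SE) with a limma adjusted p of 0.124. Ecscr differed by -0.13 log2 in sh8 and by 2.96 log2, or 7.76-fold, in WT, a fitted 1.41 ± 0.94 (SE) with a limma adjusted p of 0.358. Lrrc75b was lower by a fitted -0.90 ± 0.60 (SE), with a limma adjusted p of 0.356. The adjusted p was 0.537 for Jakmip2, whose WT values are not well above background, 0.622 for Cd55 and 0.931 for Mctp1. On day +4 against day +2 the 6 adjusted p-values ran from 0.841 to 0.974. The model has no term for a day change that differs between the lines, so such a difference was not tested.

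Day and scan go together in these arrays. Per the file headers, days -2 and 0 were scanned together and days +2 and +4 were scanned together at a later time, with both lines in each scan. So day +2 against day 0 and the second against the first scan cannot be told apart, while each daily difference between the lines lies within 1 scan.

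Many genes that mark other tissues, but not all, were higher on the arrays of days +2 and +4 in both lines. Of 19 endothelial markers measured, 9 were higher and 0 lower on day +2 against day 0 (limma, adjusted p under 0.05), with a median of 1.25 log2 beside 0.11 for all genes. The endothelial adhesion molecule Esam read -4.70, -4.53, -0.81 and -0.74 in sh8 cells, against -5.15, -4.79, -1.64 and -0.85 in WT cells (limma adjusted p of 0.00585). Sox18, Clec14a and Robo4 also passed, with adjusted p of 0.00674, 0.00929 and 0.0104. Other endothelial markers went the other way without a call. Their fitted difference was -0.69 log2 for Flt1, -0.83 for Tie1, -0.32 for Mmrn2, -0.26 for Cd93 and -0.0014 for Kdr. Of 17 lung epithelium markers 12 were higher and 0 lower, with a median of 3.10 log2, of 9 leukocyte markers 5 and 0, with 0.69, and of 4 red blood cell markers 4 and 0, with 4.09. Surfactant protein C (Sftpc), a lung product, read -7.26, -7.22, 1.62 and 1.57 in sh8 cells, against -7.52, -7.93, 1.03 and 1.53 in WT cells, and was well above background only on the arrays of days +2 and +4. Scgb1a1, Sftpa1 and Nkx2-1 passed as well, with adjusted p of 0.00246, 0.00246 and 0.00494. The summed level of the lung list was 8.87 to 36.3 over the sh8 arrays, against 11.8 to 30.4 over the WT arrays, and 6 of its 17 genes were well above background on no array of days -2 and 0.

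The endothelial markers were set beside Ecscr because it is itself known from endothelial cells. The median of the endothelial list was -5.11, -4.98, -2.02 and -1.85 log2 in sh8 cells, against -5.66, -4.63, -2.64 and -2.13 in WT cells. Its summed level, in units of the 75th percentile, was 10.7 to 18.03 over the sh8 arrays, against 7.55 to 12.9 over the WT arrays. Of its 20 genes with a probe, 8 were well above background on no array of days -2 and 0 (Cdh5, Tek, Emcn, Cldn5, Erg, Sox17, Sox18 and Clec14a), and 17 were on all 4 arrays of days +2 and +4. Ecscr in WT stood higher on days +2 and +4 together with this list, and their part in its level was not tested. The other markers were not all dim before induction: Pecam1, Kdr, Flt1, Esam, Egfl7, Eng, Vwf, Cd93, Mmrn2 and Plvap were well above background on all 4 arrays of days -2 and 0. Flt1 read 0.64 and 0.70 on those 2 days in sh8 cells, against -0.56 and -0.63 in WT cells, and Egfl7 read -0.66 and -0.50 in sh8 cells, against -1.86 and -1.39 in WT cells. Vwf read -3.97 and -3.29 in sh8 cells, against -2.83 and -2.60 in WT cells. In sh8 the Ecscr level had an SD of 0.10 log2 over the 4 days, while the list median ran from -5.11 to -1.85 log2.

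**Figure D3:**
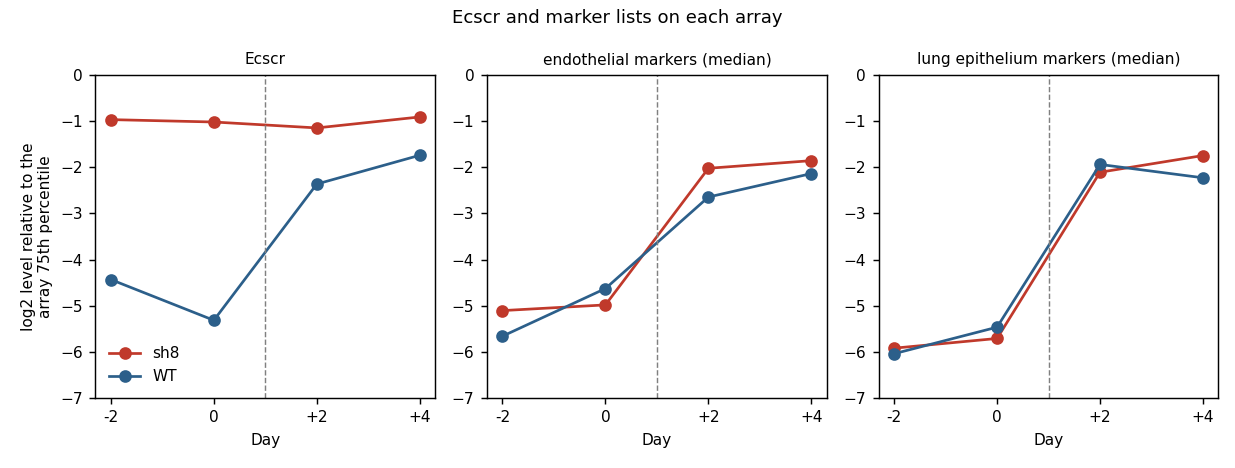
Level of Ecscr and median level of 20 endothelial and 17 lung epithelium markers (log2, relative to the array's 75th percentile) against day, 1 point per array, sh8 in red and WT in blue; the dashed line separates the first scan from the second. Both marker lists are higher on days +2 and +4 in both lines, and the WT points of Ecscr lie nearer to the sh8 points there, which was not tested.

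Between the lines, 16.8% of all features were higher in sh8 and 10.3% lower (limma, adjusted p under 0.05, all 8 arrays with day in the model). That is 4434 higher and 2723 lower, or 62.0% of calls higher, beside 50.7% with quantile scaling, 50.5% with normexp and 51.0% with the authors' values. The median of all genes was 0.13 log2 with the main scaling, 0.023 with quantile scaling, 0.010 with normexp and 0.023 with the authors' values, so small differences are read against it. Genes related to the 6 were set beside them in this test. Of the 24 such genes and chromosome neighbours that passed and met the rule for naming, 14 still passed without day -2, 1 without day 0, and 0 without day +2 or without day +4. In the first scan alone 0 of the 24 passed, and in the second scan alone 14 did. With quantile scaling 15 passed, with normexp 18, with the authors' values 15 and with scan in place of day 15.

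None of the measured relatives of Jakmip2 passed the test. Of 6 JAKMIP paralogs and Janus kinases, 0 were higher and 0 lower (1 had an unadjusted p under 0.05), with a median of 0.076 log2. Jakmip1 was 0.83 log2 higher in sh8 with a limma adjusted p of 0.0722. Jakmip3 differed by -0.070 log2 with an adjusted p of 0.857, a direction that turned without day 0 and in the second scan alone. Jak1, a kinase of cytokine receptors, differed by 0.31 log2 with an adjusted p of 0.175.

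Among 6 relatives of Mctp1 with C2 domains, 2 were higher and 2 lower in sh8, with a median of 0.40 log2. Its paralog Mctp2 was higher in sh8 by a fitted 2.71 log2 (limma adjusted p of 0.0462), being well above background on 2 sh8 arrays and no WT array. Those were the arrays of days +2 and +4, where it read -2.41 and -2.87 in sh8 cells, against -6.64 and -6.82 in WT cells. The fitted value includes readings of both lines that are not well above background, so its size is uncertain. Mctp1 itself was apart on all 4 days. Syt1, a calcium sensor of vesicle release, was 1.25 log2 higher (adjusted p of 0.0480). Syt11, a related synaptotagmin, was lower by -0.95 log2 (adjusted p of 0.0115) and Esyt2, a tether between the endoplasmic reticulum and the plasma membrane, by -0.40 log2 (adjusted p of 0.0457). The calls of Mctp2 and Syt1 ended with quantile scaling (adjusted p of 0.0743 and 0.0806), normexp (0.0986 and 0.0949, at 0.75 and 0.33 log2) and the authors' values (0.0585 and 0.0777). The Esyt2 call ended with quantile scaling and with the authors' values (adjusted p of 0.126 in both).

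For Lrrc75b, 0 of 6 measured genes of a list of its paralog and myogenic genes were higher and 0 lower (2 had an unadjusted p under 0.05), with a median of 0.37 log2. The paralog Lrrc75a differed by -0.49 log2 with a limma adjusted p of 0.119. Myod1 and Myf6, transcription factors of muscle cells, differed by 0.53 and 0.40 log2 with adjusted p of 0.0520 and 0.0656.

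Around Pcolce2, a list of procollagen proteinases for either propeptide, their enhancers and fibrillar collagen chains was read. Of its 11 measured genes 3 were higher in sh8 and 1 lower, with a median of 0.11 log2, below the 0.13 of all genes. The paralog Pcolce differed by 0.11 log2 (limma adjusted p of 0.499), and by -0.079 log2 in the first scan alone. Its levels were 6.58, 6.92, 6.48 and 6.40 in sh8 cells, against 6.64, 7.02, 6.19 and 6.07 in WT cells, so the 2 lines overlapped. Bmp1, the proteinase that these enhancers act on, was 0.63 log2 higher (adjusted p of 0.0424). Its other probes differed by 1.04 and 0.31 log2. The collagen chains Col5a1 and Col1a2 were higher by 0.58 and 0.37 log2 (adjusted p of 0.0175 and 0.0468), so 2 of the 3 higher genes are substrates. Col1a2 lost its call with quantile scaling and with the authors' values (adjusted p of 0.0631 and 0.0623). Sfrp2, a secreted Wnt modulator that also acts on procollagen processing, was lower by -4.21 log2 (adjusted p of 0.00800), or -2.79 log2 with normexp, a difference in the opposite direction from that of Pcolce2.

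Beside Cd55, a list of other complement regulators and Adgre5, which is not such a regulator, was read. Of its 9 measured genes 4, Adgre5 among them, were higher in sh8 and 1 lower, with a median of 0.43 log2. Among all features the shares were 16.8% and 10.3%. Adgre5, or CD97, a known binding partner of Cd55, was 1.51 log2 higher (limma adjusted p of 0.0164). Cr1l, the mouse membrane regulator also called Crry, was lower by -1.34 log2 (adjusted p of 0.0116), so the 2 surface regulators Cd55 and Cr1l differed in opposite directions. Vtn was 0.43 log2 higher (adjusted p of 0.0315), but 0.21 log2 with quantile scaling, 0.035 log2 with normexp and -0.060 log2 with the authors' values, with no call in any of the 3. Of 14 complement components, 1 was higher and 2 lower, with a median of 0.15 log2. C3ar1 was higher by 0.61 log2 (adjusted p of 0.0213), and C4b and C1s1 were lower by -2.26 and -0.89 log2 (adjusted p of 0.0306 and 0.0484). The C3ar1 value was 0.34 log2 with quantile scaling (adjusted p of 0.101), 0.090 log2 with normexp (0.367) and 0.34 log2 with the authors' values (0.0994), and C1s1 lost its call with quantile scaling and the authors' values (0.0841 and 0.0811).

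The endothelial list, set beside Ecscr, had 6 of 19 genes higher in sh8 and 0 lower, with a median of 0.42 log2. The growth factor receptor Flt1 was higher by 1.61 log2, the adhesion molecule Pecam1 by 0.71 log2, Egfl7 by 0.86 log2 and Eng by 0.42 log2, with limma adjusted p of 0.0134, 0.0149, 0.0219 and 0.0326. Eng was at 0.18 log2 with quantile scaling (adjusted p of 0.229), 0.084 log2 with normexp (0.371) and 0.18 log2 with the authors' values (0.230), so its call ended in all 3. Of the lists of other tissues, 5 of 9 leukocyte markers were higher and 0 lower, and 3 of 17 lung markers were higher and 1 lower, beside 16.8% and 10.3% of all features. Of 4 red blood cell markers 0 were higher and 0 lower (2 had an unadjusted p under 0.05). Among fat cell markers 0 of 9 were higher and 3 lower, and among preadipocyte and fibroblast markers 3 of 9 were higher and 2 lower.

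Chromosome neighbours were looked at next, taking the 3 nearest measured protein-coding genes on each side in RefSeq gene order. Of 36 neighbours, 5 were higher in sh8 (13.9%) and 7 lower (19.4%), with a median of 0.14 log2 and a range from -3.21 to 1.96. Among all features these shares were 16.8% and 10.3%. The neighbours on either side of Jakmip2, Dpysl3 and Spink1, differed by -0.46 and -0.0077 log2, with limma adjusted p of 0.185 and 0.976. Beside Ecscr, Spata24 and Dnajc18 were lower by -1.51 and -0.70 log2, with adjusted p of 0.00851 and 0.0176. Near Mctp1, 2210408I21Rik was lower by -0.97 log2, with an adjusted p of 0.0148. Next to Lrrc75b, Ggt5, a gamma-glutamyltransferase, was lower in sh8 by a fitted -3.21 log2, with an adjusted p of 0.0156. It was well above background on no sh8 array and on 3 WT arrays, so the size of its difference is uncertain. With normexp the values were nearer to 0, at -0.37 log2 for Spata24, -0.63 for 2210408I21Rik and -0.79 for Ggt5, and still passed. Spata24, Dnajc18, 2210408I21Rik and Ggt5 are the called neighbours with the lowest p, and the 5 higher ones are not among them.

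Cd55b, the paralog next to Cd55, read -3.58, -3.37, -2.93 and -3.32 in sh8 cells, against -4.23, -3.70, -3.66 and -3.59 in WT cells. Its difference of 0.49 log2 passed in limma with an adjusted p of 0.0421, and no longer passed with quantile scaling, normexp or the authors' values. A second Cd55b probe (A_66_P106385) differed by 1.95 log2, with a signal well above background on all 4 arrays of sh8 and on 2 of WT, so the probes of Cd55b disagree in size. The 2 genes are close copies, and how far each probe reads the other's transcript was not tested.

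**Figure D4:**
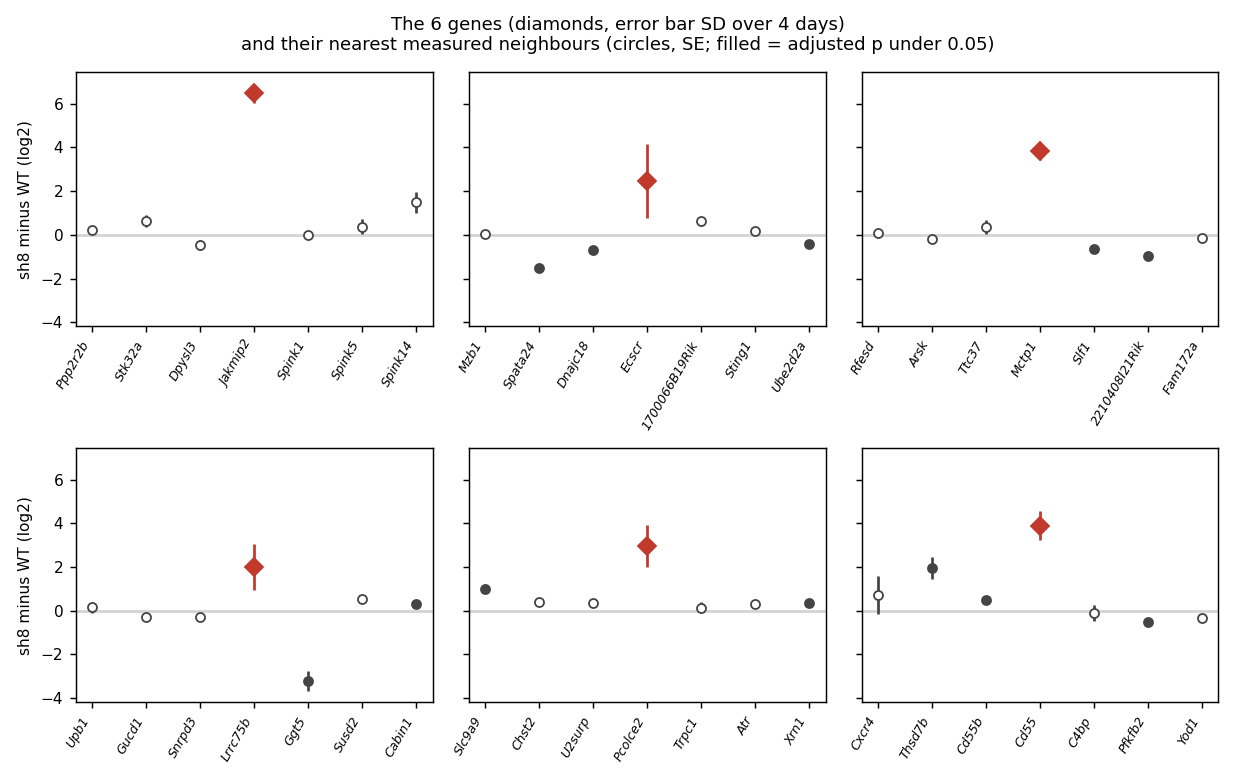
Difference of sh8 minus WT (log2) for each of the 6 genes (red diamonds, mean with SD over 4 days) and for its 3 nearest measured neighbours on each side (circles, fitted value with SE), in chromosome order without distances; filled circles have an adjusted p under 0.05. Every diamond lies above all 6 of its neighbours, and the 6 genes were chosen for a high difference.

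Genes with the most similar course were listed for each of the 6 by the smallest root-mean-square difference over the 8 arrays, after each gene's own mean was removed, among 16230 named genes. For Jakmip2 the nearest was Csn1s2a, a milk casein, at 1.27 log2, with Slc27a6 at 1.58 and 1700001K23Rik at 1.59. Ecscr was nearest to Slc39a4, a zinc transporter, at 0.45 log2, then to Dnaaf3 at 0.49 and Togaram2 at 0.52. Mctp1 had Gm17751 at 0.44 log2, B3gnt6 at 0.45 and Eml2 at 0.46, and Cd55 had Gm17751 at 0.43 log2, Nhsl1 at 0.48 and Eml2 at 0.48. Lrrc75b had Gm11545 at 0.37 log2, Prkcb, a protein kinase C, at 0.43 and Tmem262 at 0.46. Pcolce2 had Kcnj16, a potassium channel, at 0.49 log2, Togaram2 at 0.50 and A630023A22Rik at 0.56. Jakmip2 had no gene within 1 log2, and its distances include WT values that are not well above background. Gm17751, B3gnt6, Slc27a6 and 1700001K23Rik were well above background on no WT array, so their WT course is not measured. Prkcb was well above background on 1 WT array, Dnaaf3, Togaram2 and Tmem262 on 2, and Csn1s2a and Kcnj16 on 3. Each distance also includes the line difference that the 6 genes were picked on.

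Among the 15 pairs of the 6 genes, Mctp1 and Cd55 had the closest courses, at 0.50 log2, and Jakmip2 and Ecscr the farthest apart, at 2.37 log2. Ecscr and Pcolce2 came next to the closest pair, at 0.86 log2. These distances are descriptions over 8 arrays that every gene shares.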

How the data were processed

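RNA of 2 lines of 3T3-L1 cells was read on 8 one-colour Agilent arrays. Per the file headers, the authors scanned them in 1 colour (software Agilent Feature Extraction, version 11.0.1.1). The deposited files hold a processed intensity per spot, not scaled between arrays. The authors also deposited a table of log2 values, made in a way not given in the sources used here. Each of its columns correlated with its own array (r at least 0.994), and it served as an alternative.

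Of 44397 spots per array, 1377 controls were left out. Repeat spots were averaged, and an outlier flag removed 46 of 39429 probes. RefSeq accessions gave 27207 probes a symbol and 12176 none, from a table of GRCm38.p6 used for names and gene order, since the headers name mm9. The 75th percentile of each array was subtracted on the log2 scale. Probes well above background on at least 2 of 8 arrays were kept, with the brightest per gene, which left 26460 features (17548 named). A line not well above background has a bound only where the other line was well above background on each array compared. The bound is set on each array by the lowest value well above background or by the gene's value, whichever is higher.

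Tests used limma 3.58.1 in R 4.3.3, with day and line in the model (3 residual degrees of freedom). The same fit was also run on simulated data with added line or day effects and independent noise. Those data held no day change that differs between the lines, so that case is not covered. With 1 array per line and day, p-values measure how far arrays depart from adding a line and a day term. Alternatives were quantile scaling, normexp (offset 50, then quantile), the authors' values, no filter, each probe, single scans, scan in place of day, and leaving out each day. Normexp used the median signal, as the files have no mean signal.

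The 6 genes and the lists were chosen with earlier results of these data known. Of each list and of the neighbours, up to 4 genes past the threshold with the lowest p are named, or 2 if none passed, and the direct paralogs always; 1 such gene is not reported here.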

Additional observations from a re-analysis of the deposited data

How the results depend on the processing

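The 4 counts of called features depended on the setting. For sh8 against WT, 7157 features passed on all 8 arrays, against 4206 without day -2, 79 without day 0, and 0 without day +2, without day +4 or in the first scan alone, where 9444, 8651 and 8389 had an unadjusted p under 0.05. For day +2 against day 0, 3146 passed, against 1953 with quantile scaling, 1963 with the authors' values and 1043 without day +4. For day 0 against day -2, 0 passed, against 1747 with normexp and 10 with the authors' values, and for day +4 against day +2, 0 passed, against 1 with quantile scaling and 1 with the authors' values. In the second scan alone 5164 features passed for sh8 against WT. Leaving out days leaves fewer arrays for the spread, and the cause of none of these shifts was tested. Because the 6 genes were picked for a high sh8 level on these same arrays, the sign of their difference is no test. The mean sh8 minus WT difference was positive for all 6 genes under every alternative run. It moved by more than its spread for Jakmip2 (5.49 log2 with the authors' values, 2.27 with normexp, 2.84 with the second probe, 4.65 as a mean over probes), Mctp1 (2.60 with normexp, 2.01 with the second probe, 2.92 as a mean over probes) and Cd55 (2.75 with normexp), and by less in the other 50 of 58 values. Normexp with its offset shrinks differences of dim probes. No day change of the 6 genes passed under any alternative, and 101 of 102 kept their direction, the exception being Mctp1 on day +2 against day 0 (0.037 with normexp). Among 43 results for other genes, 147 of 370 values lost a call, 1 gained one (Myod1, with scan in place of day), and 4 turned: Jakmip3 (0.34 in the second scan alone, 0.20 without day 0), Pcolce (-0.079 in the first scan alone) and Vtn (-0.060 with the authors' values). The main model already compares the lines within each day, and no replicate block or left-out replicate could be fitted because each line and day has 1 array. Signal over background limits Jakmip2 most, since its WT level has only a bound. The second-probe and mean-over-probes values of Mctp1 also include arrays where its second probe was not well above background.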
